A study of Mus musculus with 14 samples.

Results

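Thy1, Col1a1, Col1a2, Twist1, Twist2, Prrx1, Snai2, Postn, Fn1 and Vim, 10 of the 22367 protein-coding genes of the mouse annotation, were chosen by name as genes that mark fibroblasts and mesenchymal cells, and every methylated-DNA peak within each gene and 2 kb on each side of it was collected from 14 samples. Chromosomes 1 to 19, X and Y were used. The promoter window was 1 kb on each side of the start site, and the body was the rest of the gene. The samples gave 33 merged regions at these genes, where a merged region is a run of overlapping peaks from any of the 14 samples. Of these regions 24 held coding exon sequence, 6 lay wholly in introns and 4 held UTR sequence, and only 1 reached a promoter window. Peaks at the 10 genes numbered 17 to 27 in an iPS clone, 14, 4 and 29 in the ES lines, and 5, 12 and 7 in the MEF cultures.

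Genomic DNA was sonicated and enriched for methylated fragments with a methyl-CpG-binding-domain protein (MBD-seq), then sequenced. The 8 iPS clones, 4 Aid+/+ and 4 Aid-/-, were male lines made from MEFs with retroviral reprogramming factors, carried a Nanog-GFP reporter on a mixed C57BL6, DBA and 129S4 background, and were taken at passage 6 on gelatin with puromycin. Aid encodes activation-induced cytidine deaminase. The 3 ES lines were RF8 (labelled 129SV, passage 19), MG1.19 (129Ola) and B6 ES (C57BL6), called ES 1, ES 2 and ES 3 here, with no Aid genotype in the labels. They were likewise taken on gelatin, which the MEF labels do not name. The 3 MEF cultures were Aid+/+ with the same reporter and strain mix, at passage 3, and came from single embryos without head and gut. Each iPS line was 1 clone, and several clone names share a leading number without a statement of whether the MEFs of origin were shared, so p-values measure the spread between these samples. MEFs also differed from iPS and ES cells in culture medium and passage, which cannot be told apart from cell type.

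Cytosine methylation at CpG sites is copied at each cell division by a maintenance enzyme and is set anew by de novo enzymes that are active in early embryos and pluripotent stem cells. CpG-dense promoters usually stay unmethylated whether or not the gene is in use, whereas CpG-poorer promoters and gene bodies are methylated in a way that varies with cell type. Fibroblasts build the collagen and fibronectin matrix and keep a mesenchymal state through transcription factors such as Twist, Prrx1 and Snai2, and this programme is switched off when they become pluripotent.

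The libraries differed in how much of them lay in peaks. Tags left after removal of duplicates numbered 6.65 to 15.9 M (M, mega) in iPS clones, 10.2 to 15.5 M in ES lines and 17.5 to 19.6 M in MEFs. Peaks numbered 68463 to 109417, 33082 to 105017 and 35029 to 57020, and held 48.6 to 61.6%, 16.4 to 53.8% and 18.9 to 27.0% of these tags, respectively. MEFs thus had more tags and fewer peaks than every iPS clone, and the part of this difference in the results at single genes was not tested beyond the comparisons at equal peak numbers given beside them. Promoters of 12 pluripotency genes were read as a check of the labels. Zfp42 had a promoter peak in 3 of 3 MEFs and Nanog in 2 of 3, and neither had one in any iPS or ES sample. Dppa5a and Tdgf1 had one in 1 MEF each and in no pluripotent sample, and Tcl1 in 2 MEFs, 1 iPS clone and 1 ES line. Pou5f1 had a promoter peak in 8 of 8 iPS clones, Utf1 in 3 and Sall4 in 2, with none in any ES line or MEF. So 4 of the 12 promoters had a peak in some iPS clone and 5 in some MEF. Single iPS clones had a promoter peak at 8.14 to 13.4% of all genes and single MEFs at 5.80 to 7.99%. A peak in every MEF and no iPS clone was found for 1 of 8 genes, beside 1.53% of all genes with a promoter peak. The reverse was found for 1 of 8, beside 3.76%. All 8 Pou5f1 peaks lay over its first coding exon, a sequence that the retroviral copies of Oct3/4, the product of Pou5f1, in the iPS clones also hold, so methylation of the gene and of the retroviral copies cannot be told apart there. Covered length was above every iPS clone in all MEFs at Zfp42 and Dppa3 and below at Pou5f1. These are 2 and 1 of 11 genes with a peak, beside 2.96% above and 19.9% below over all genes. Dppa3 was also above every ES line, 1 of 10 genes beside 3.69% of all genes.

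The sequences of 4 promoters are given to show the range of CpG content in front of these genes, with each CpG in capitals. They run 5′ to 3′ over the 213 bp before the start site on the mm9 (NCBIM37) build, a length set by the methylated stretch of Col1a1, which began 213 bp before its start. The first had a peak in all 8 iPS clones, and the other 3 had none in any sample.
Col1a1, chr11:94797325-94797537, plus strand: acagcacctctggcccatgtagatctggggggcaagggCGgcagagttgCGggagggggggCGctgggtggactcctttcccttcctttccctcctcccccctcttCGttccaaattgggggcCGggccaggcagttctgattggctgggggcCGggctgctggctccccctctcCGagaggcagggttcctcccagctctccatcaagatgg
Col1a2, chr6:4454601-4454813, plus strand: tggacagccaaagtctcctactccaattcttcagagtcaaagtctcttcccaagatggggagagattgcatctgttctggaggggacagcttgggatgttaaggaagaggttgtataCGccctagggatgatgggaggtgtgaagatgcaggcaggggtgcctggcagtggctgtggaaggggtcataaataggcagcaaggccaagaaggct
Twist1, chr12:34642323-34642535, plus strand: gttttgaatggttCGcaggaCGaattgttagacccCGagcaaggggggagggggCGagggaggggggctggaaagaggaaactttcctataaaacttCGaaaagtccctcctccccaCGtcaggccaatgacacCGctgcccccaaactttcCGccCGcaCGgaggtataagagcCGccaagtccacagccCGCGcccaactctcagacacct
Vim, chr2:13495341-13495553, plus strand: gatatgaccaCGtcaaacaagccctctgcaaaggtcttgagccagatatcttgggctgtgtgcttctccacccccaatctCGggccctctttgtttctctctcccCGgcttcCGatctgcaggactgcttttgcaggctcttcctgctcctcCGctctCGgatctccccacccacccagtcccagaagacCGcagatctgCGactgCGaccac

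These 213-bp stretches held 7 CpGs at Col1a1, 1 at Col1a2, 13 at Twist1 and 9 at Vim. Over the whole 2-kb promoter window the count was 44 for Col1a1, 40 for Col1a2, 184 for Twist1 and 89 for Vim. The other members had 57 at Thy1, 145 at Twist2, 53 at Prrx1, 68 at Snai2, 13 at Postn and 89 at Fn1. When all protein-coding genes were put in 4 bins by this count, a promoter peak in every iPS clone was found for 1.13% of genes with 0 to 23 CpGs, 15.3% with 24 to 61, 2.23% with 62 to 99 and 1.03% with 100 or more. Col1a1, Col1a2, Thy1 and Prrx1 fell in the second bin, Postn in the first, and the other 5 in the upper bins. Col1a1 was the only one of the 10 with a peak there. The paper proposes that CpG density can affect MBD-seq. Few peaks in a bin, or no peak at a member, are thus not a measure of low methylation.

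**Figure D1:**
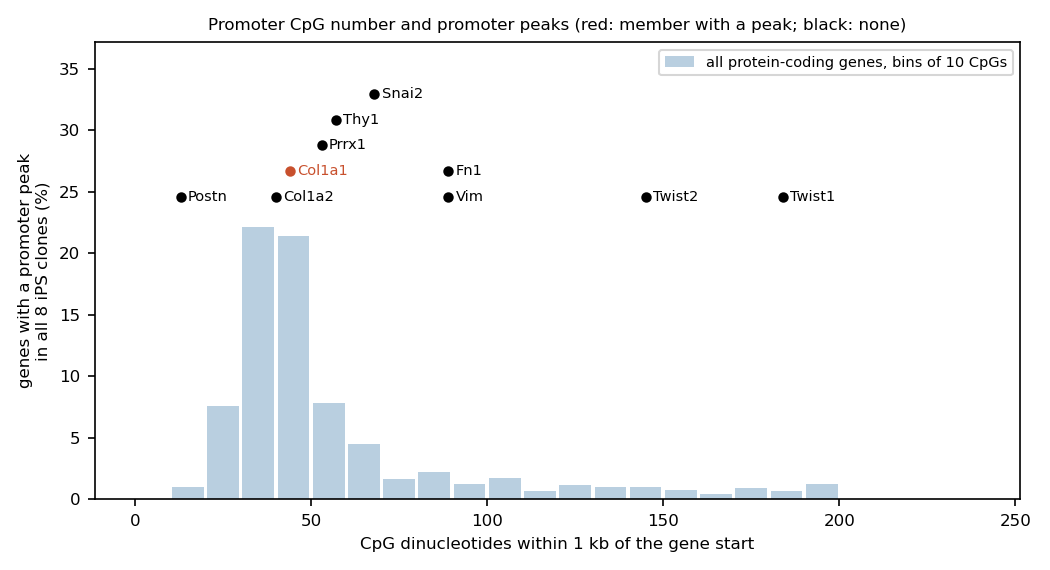
Bars give the percent of protein-coding genes with a promoter peak in all 8 iPS clones (vertical axis) by the number of CpGs within 1 kb of the gene start (horizontal axis, bins of 10 CpGs), and each point marks the CpG count of a named gene, its height being only for legibility. Col1a1 at 44 CpGs, in red, is the only member with a promoter peak, and Twist1 lies farthest to the right at 184.

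Twist1, Snai2 and Vim had no peak in any of the 14 samples, neither in the promoter window nor in the body. Twist1 and Snai2 encode transcription factors of the epithelial-to-mesenchymal transition and Vim encodes the intermediate filament protein vimentin. With Thy1 they are the shortest members, at 2.15, 3.54 and 8.9 kb for Twist1, Snai2 and Vim. Of all 22367 protein-coding genes, 16797 had a peak in the gene or its 2-kb flanks in some MEF or iPS clone, so absence of peaks is not particular to these members. A gene without a listed peak can still carry methylation below the calling threshold of MACS, the program that called the peaks (p cutoff 1e-05).

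The transcription factors Twist2 and Prrx1 had no promoter peak in any sample, and their peaks lay in introns, over exons inside the gene or near its 3′ end. Twist2 peaks covered 0, 1832, 2323 and 2131 bp in the Aid+/+ clones and 1244, 1059, 2102 and 611 bp in the Aid-/- clones. Coverage was 672, 0 and 1707 bp in ES 1 to 3 and 0, 633 and 0 bp in MEF 1 to 3. The groups overlapped, since Aid+/+ clone 1 and 2 MEFs were at 0 (mean 211 bp in MEFs against 1413 bp in iPS clones, exact permutation p = 0.0667, adjusted p = 0.147). Prrx1, a homeobox gene of limb and craniofacial mesenchyme, was covered over 404, 2222, 1863 and 2438 bp in the Aid+/+ clones and 1067, 2099, 2444 and 1027 bp in the Aid-/- clones. It was covered over 593, 0 and 2775 bp in ES 1 to 3 and over 0, 0 and 349 bp in MEFs. Every MEF was below every iPS clone (116 ± 201 against 1696 ± 764 bp, mean ± SD, n = 3 and 8, exact permutation p = 0.00606, adjusted p = 0.0361). The only Prrx1 peak of a MEF, 44.6 kb from the start in an intron, was in MEF 3 with 16 tags and had no counterpart in any iPS or ES sample.

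Col1a1, the alpha-1 chain of type I collagen, was the only member with a promoter peak. A region at chr11:94797205-94798135, over the start site, the first exon and upstream sequence, had a peak in 8 of 8 iPS clones, in ES 3 and in no MEF. Its tags numbered 62, 20, 23 and 25 in the Aid+/+ clones and 52, 38, 24 and 25 in the Aid-/- clones, with 66 in ES 3. Fold enrichment over the local background was 11.8 to 30.0 in the iPS clones (median 20.8) and 29.2 in ES 3. The difference of 8 of 8 against 0 of 3 gave p = 0.00606 (two-sided Fisher's exact test), the smallest value this design allows, and an adjusted p of 0.115 over 5108 genes with a promoter peak, among which no gene passed 0.05 and 446 had an unadjusted p under it. A promoter peak in every iPS clone and no MEF was found for 3.76% of these genes, and the reverse for 1.53%. Col1a1 was the only member with a promoter peak in these samples, hence the only one of the 10 that is counted among the 5108, and it fell in the first class. The promoter peak was in 7 of 8 iPS clones at a MACS p of at most 1e-10, and in 2 of 8 when each sample was cut to its 35029 strongest peaks, a difference of 25 percentage points from MEFs in place of 100. For the bodies, 0 members had a peak in every iPS clone and no MEF, against 4.26% of genes. Without MEF 2 members apart in promoter or body numbered 3, with Thy1 and Postn added, and without MEF 3 they numbered 2, with Prrx1 added. Shares over all genes with these samples left out are not given.

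Over the whole of Col1a1 with its flanks, peaks covered 3172, 2892, 2680 and 3491 bp in the Aid+/+ clones and 3111, 3956, 3494 and 3320 bp in the Aid-/- clones. They covered 2003, 639 and 4618 bp in ES 1 to 3 and 1436, 2153 and 2289 bp in MEF 1 to 3. All 3 MEFs lay below all 8 iPS clones, while the ES lines ran from below the MEFs to above the iPS clones. The mean fell by 1305 bp in MEFs (1959 ± 458 against 3265 ± 396 bp, exact permutation p = 0.00606, adjusted p = 0.0361). A region 6.88 kb into the gene had 30 to 83 tags in the 8 iPS clones, 41 in ES 1 and 115 in ES 3, and 20 tags each in MEF 2 and MEF 3. The region at the 3′ end, 14.6 kb from the start, had a peak in all 14 samples. Col1a2, the partner alpha-2 chain, had 1 region, 34.8 kb from the start and overlapping coding sequence. It had 14 to 19 tags in the 5 iPS clones with a peak there, and no peak in ES lines or MEFs (exact permutation p = 0.176, adjusted p = 0.291).

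Thy1, a cell-surface glycoprotein used to sort fibroblasts, had a single region, 3.38 kb from its start and overlapping a coding exon. It was present in 8 of 8 iPS clones with 13 to 33 tags, in ES 1 and ES 3 with 23 and 44 tags, and in MEF 2 with 23 tags. MEF 2 was within the iPS range for tags and also for fold enrichment (11.2 against 8.47 to 25.6 in the iPS clones). Covered length at Thy1 was 316 to 481 bp in iPS clones (median 415.5) and 0, 680 and 0 bp in MEFs, so the groups overlapped (exact permutation p = 0.164, adjusted p = 0.278). Postn encodes periostin, a matrix protein of connective tissue. Its region 6.42 kb from the start had 18, 33, 37 and 40 tags in the Aid+/+ clones, 27, 23, 23 and 15 in the Aid-/- clones, 18 and 45 in ES 1 and ES 3, and no peak in ES 2 or any MEF. The other Postn region, 14 kb from the start, was present in 4 iPS clones, ES 3 and MEF 2. Postn covered length was 373 to 1218 bp in iPS clones (median 745) and 0, 623 and 0 bp in MEFs (exact permutation p = 0.0424, adjusted p = 0.110).

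Fn1, which encodes the matrix glycoprotein fibronectin, held 14 of the 33 regions, and each overlapped a coding exon at least in part. Peaks covered 5529, 6468, 6785 and 9887 bp in the Aid+/+ clones and 6766, 7120, 7629 and 5317 bp in the Aid-/- clones. Covered length was 5155, 1661 and 7999 bp in ES 1 to 3, and 2955, 5154 and 3019 bp in MEF 1 to 3. The highest MEF was 5154 bp and the lowest iPS clone 5317 bp, so the groups were apart by a small margin (3709 ± 1252 against 6938 ± 1419 bp, exact permutation p = 0.00606, adjusted p = 0.0361). Of the 10 genes, 3 (Col1a1, Prrx1 and Fn1) had every MEF below every iPS clone, 0 had every MEF above, and 7 had any peak. Over the 16797 genes with a peak in these samples 19.9% lay below and 2.96% above in this sense, and 14.4% passed an adjusted p of 0.05 in the lower direction. Without MEF 2, Thy1 and Postn joined the members below, for 5 members, and the share over all genes for those samples is not given. With 35029 peaks kept per sample, 0 of the 4 members that still had a peak were apart in either direction, while 4.12% of genes lay below and 14.9% above. Mean covered length was then 1742 bp in MEFs and 2119 bp in iPS clones at Col1a1 (exact permutation p = 0.261, adjusted p = 0.456). It was 2917 and 2978 bp at Fn1 (exact permutation p = 0.921) and 116 and 85.4 bp at Prrx1 (exact permutation p = 1).

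**Figure D2:**
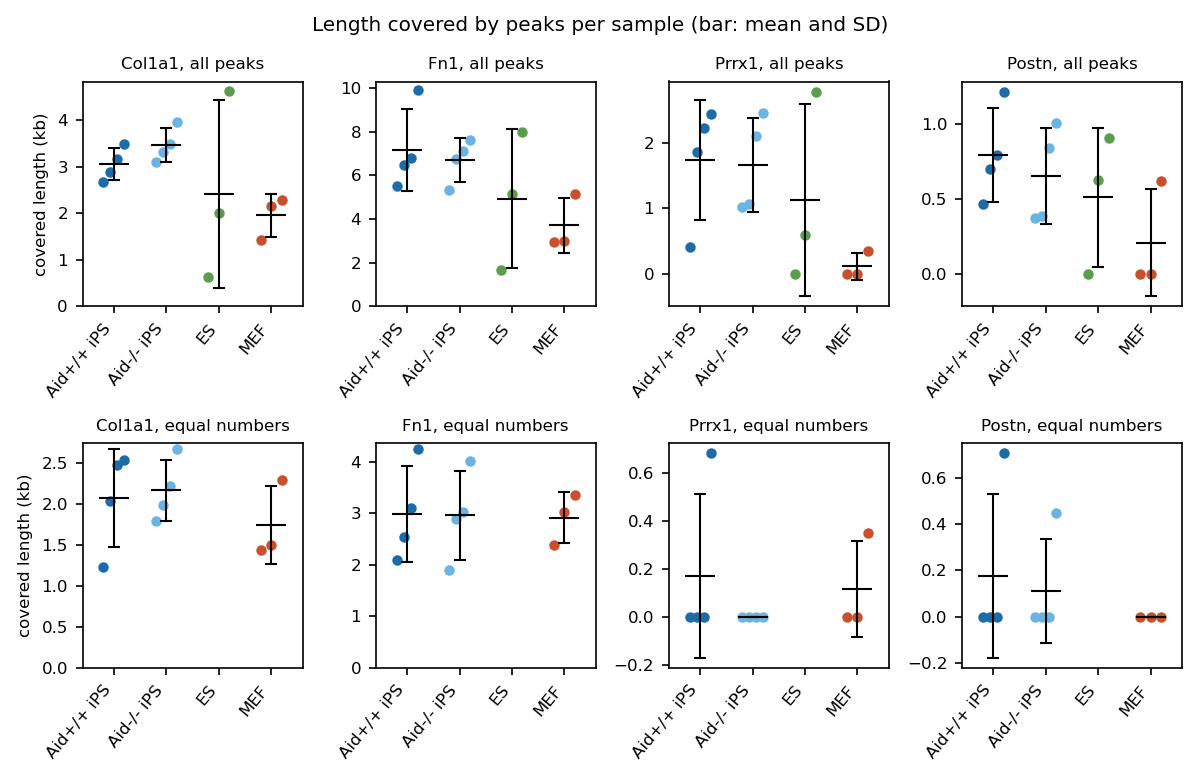
Length covered by peaks (kb) in the gene with 2 kb on each side, 1 point per sample, with bars for mean and SD, for Col1a1, Fn1, Prrx1 and Postn. With all peaks (top) the 3 MEFs lie below all 8 iPS clones at Col1a1, Fn1 and Prrx1, and with 35029 peaks per sample (bottom, MEFs and iPS clones) they overlap at all 4 genes.

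**Figure D3:**
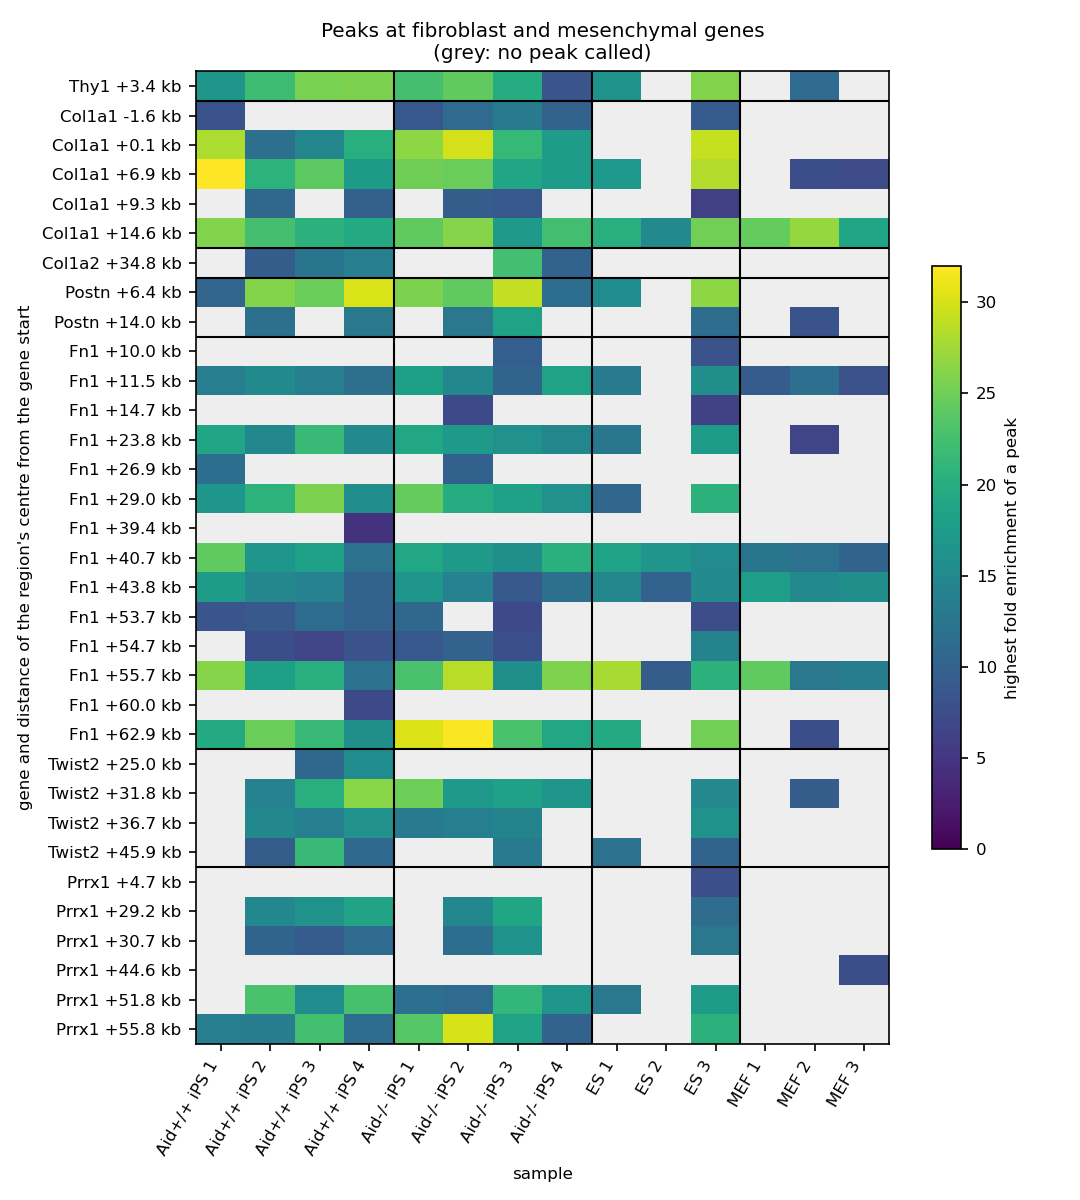
Rows are the 33 merged regions, ordered by gene and labelled by the distance of their centre from the gene start (kb), columns are the 14 samples, and colour gives the highest fold enrichment of a peak, with grey where none was called. ES 2 and the MEFs have the fewest coloured cells, and 4 rows, 1 of Col1a1 and 3 of Fn1, are coloured in every column.

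Of the 33 regions, 13 had a peak in all 8 iPS clones, 21 in no MEF and 5 in all MEFs. The 13 were present 11 times in ES 1, 4 times in ES 2 and 13 times in ES 3, and 5, 9 and 6 times in MEF 1 to 3. ES 3 thus had a peak wherever all iPS clones did, and ES 2, the library with the fewest peaks, had only those shared by every sample. At 11.5 kb in Fn1 the peaks of the MEFs fell in the same merged region but had no stretch common to all 3 of them. Only 1 region had a MEF peak and no iPS peak, the intronic Prrx1 region described above. Shares of these patterns over all merged regions of the genome are not given. Every MEF listed fewer peaks than every iPS clone, so the counts cannot be read as particular to these genes.

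The stretch of DNA inside the peaks of every sample of a group was then taken, and called a differentially methylated region (DMR) if no peak of the other group touched it and a commonly methylated region (CMR) if each sample of that other group had a peak over some of it. The members held 13 stretches common to the iPS clones, of which 4 were DMRs, 4 were CMRs and 5 were touched by some MEFs. Across the genome 18.9% of 52947 such stretches were DMRs and 24405 of them were CMRs. The 4 DMRs were in Col1a1 at the promoter, in Prrx1 at 55.8 kb, in Postn at 6.42 kb and in Fn1 at 29.0 kb, and each also had a peak in ES 3. All 4 stretches common to the MEFs, 1 in Col1a1 and 3 in Fn1, were CMRs. So were 24242 of the 31303 MEF stretches in the genome, of which 2.64% had no iPS peak. Without MEF 2, the MEF culture with the most peaks, the members had 7 DMRs, and the genome share for those samples is not given. At 35029 peaks per sample the members kept 3 stretches common to the iPS clones, with 0 DMRs, against 6.66% in the genome. All ES lines shared 5 stretches at these genes, with 0 DMRs against MEFs (9.18% in the genome), and MEFs had 0 DMRs against ES lines (2.09%).

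Sequences inside the 3 gene-body DMRs and inside the Fn1 CMR at 43.8 kb are given so that the DNA behind presence and absence can be seen beside DNA enriched in every sample. Each is 240 bp of mm9, written 5′ to 3′ on the strand of its gene, with CpGs in capitals.
Prrx1 DMR, chr1:165187893-165188132, minus strand: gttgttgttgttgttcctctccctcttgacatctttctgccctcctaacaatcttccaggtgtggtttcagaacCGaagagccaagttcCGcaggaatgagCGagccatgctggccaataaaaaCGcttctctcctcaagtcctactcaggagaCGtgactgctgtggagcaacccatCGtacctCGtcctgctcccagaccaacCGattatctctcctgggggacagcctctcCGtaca
Postn DMR, chr3:54171414-54171653, plus strand: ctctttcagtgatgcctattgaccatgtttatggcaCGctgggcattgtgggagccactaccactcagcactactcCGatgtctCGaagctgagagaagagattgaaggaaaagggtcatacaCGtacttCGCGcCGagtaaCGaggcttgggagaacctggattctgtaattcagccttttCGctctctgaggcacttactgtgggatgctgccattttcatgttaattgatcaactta
Fn1 DMR, chr1:71670724-71670963, minus strand: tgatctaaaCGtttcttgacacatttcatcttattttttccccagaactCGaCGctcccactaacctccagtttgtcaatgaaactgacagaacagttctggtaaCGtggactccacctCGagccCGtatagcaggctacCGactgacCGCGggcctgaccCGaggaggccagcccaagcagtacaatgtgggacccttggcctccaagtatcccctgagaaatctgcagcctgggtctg
Fn1 CMR, chr1:71655857-71656096, minus strand: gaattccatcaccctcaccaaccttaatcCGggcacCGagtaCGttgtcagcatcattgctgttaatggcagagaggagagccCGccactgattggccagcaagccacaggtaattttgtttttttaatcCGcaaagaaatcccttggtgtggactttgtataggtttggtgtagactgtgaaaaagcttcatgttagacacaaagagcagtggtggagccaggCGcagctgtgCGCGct

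These 240-bp sequences held 9, 9, 10 and 8 CpGs, in the order printed. Over the whole common stretches CpG density was 3.33 per 100 bp at the Prrx1 DMR, 3.68 at Postn, 3.48 at Fn1 and 3.96 at the Col1a1 promoter. The 4 CMRs ran from 2.74 at Fn1 55.7 kb to 5.11 at Fn1 43.8 kb. In the genome the median was 3.26 for stretches common to iPS clones that were DMRs and 4.03 for CMRs, so the members' DMRs and CMRs overlapped in CpG density. Tags behind the DMRs were few. At the Prrx1 DMR they numbered 24, 19, 31 and 22 in the Aid+/+ clones, 28, 36, 22 and 14 in the Aid-/- clones and 39 in ES 3. At the Fn1 DMR they numbered 40, 37, 61 and 43 in the Aid+/+ clones, 44, 33, 33 and 28 in the Aid-/- clones and 15 and 60 in ES 1 and ES 3. The smallest listed peak had 10 to 14 tags in the iPS clones and 14, 15 and 16 tags in the MEFs, so absence from a MEF list is not a measurement of 0.

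**Figure D4:**
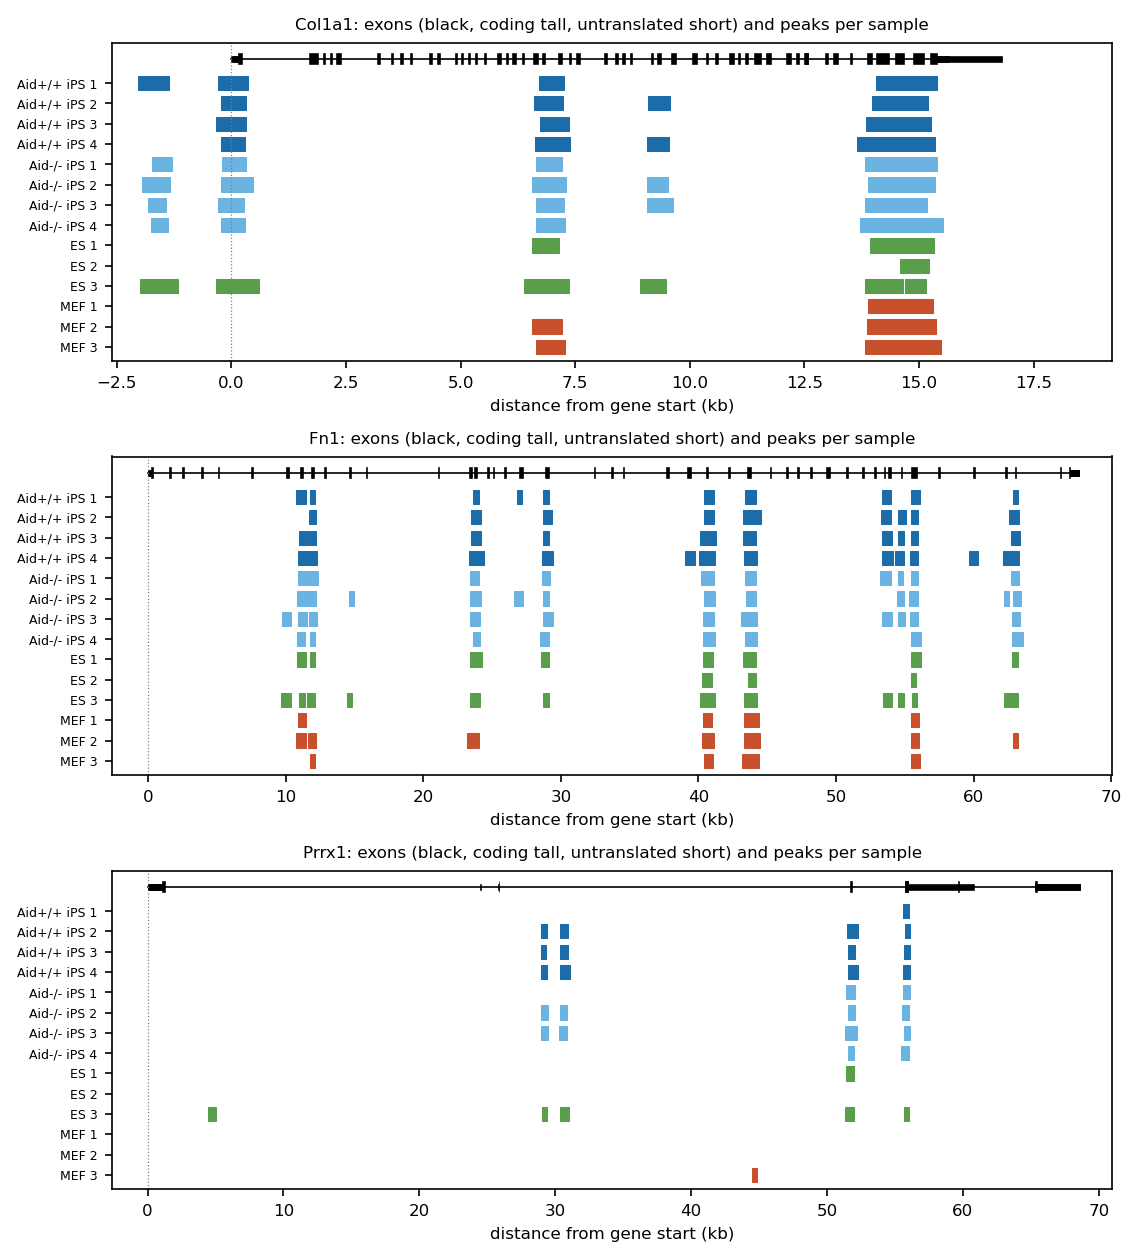
Maps of Col1a1, Fn1 and Prrx1 by distance from the gene start (kb), with exons in black and the peaks of each sample as bars coloured by group. All 14 samples have a peak at the 3′ end of Col1a1 and at 3 sites of Fn1, and the only MEF peak of Prrx1 lies at 44.6 kb, away from those of the iPS clones.

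Regions with a peak in every compared sample allow a comparison of tag counts. The count of a sample is the sum over its own peaks in the region, so differences in peak length enter it. Between MEFs and iPS clones 5 such regions lay at the members, 1 in Col1a1 and 4 in Fn1, among 22481 in the genome, and edgeR was fitted to all of them with the tags at these shared regions as the library size. The Fn1 region 43.8 kb from the start overlapped a coding exon but lay largely outside it. Its peaks were 1149, 1149 and 1265 bp long in MEF 1 to 3 and 755 to 1285 bp in iPS clones. This region had 344, 259 and 219 tags in MEF 1 to 3. It had 188, 142, 155 and 96 tags in the Aid+/+ clones and 150, 118, 84 and 114 in the Aid-/- clones. Every MEF was above every iPS clone, and the log2 difference was 1.55 (SE 0.125, edgeR quasi-likelihood test, adjusted p = 3.2e-08). Scaled to the filtered tags of each library (CPM), the same region stood at 12 to 17.5 in MEFs and 9.95 to 14.1 in iPS clones, which overlap, and the log2 difference was 0.32 with an edgeR adjusted p of 0.0907. By limma on log2 fold enrichment it was 0.29 (limma adjusted p = 0.233).

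The Col1a1 region 14.6 kb from the start had 233, 214 and 187 tags in MEFs and 106 to 321 in iPS clones (median 208.5). Its log2 difference was 0.54 (SE 0.195, edgeR adjusted p = 0.0294), and it turned to -0.69 (edgeR adjusted p = 0.00327) per filtered tags. It was 0.12 with total tags as library size (edgeR adjusted p = 0.815) and 0.06 by limma on fold enrichment (limma adjusted p = 0.780). At 55.7 kb in Fn1 there were 63, 41 and 36 tags in MEFs and 52 to 112 in iPS clones, with a log2 difference of -0.49 (SE 0.183, edgeR adjusted p = 0.0340), and -1.70 per filtered tags. The Fn1 regions at 40.7 kb and 11.5 kb gave 0.03 and -0.21 (edgeR adjusted p = 0.860 and 0.694), and -1.19 and -1.39 per filtered tags. Thus 2 of the 5 regions were higher in MEFs and 1 was lower, where 24.7% of all shared regions were higher and 26.3% lower. Per filtered tags 0 of the 5 were higher and 4 lower, beside 1227 higher and 18516 lower of all 22481. By limma 0 were higher and 2 lower, beside 1912 and 8554 of all 22481. With peak length as an offset 2 were higher and 0 lower, beside 4578 and 3514. Without MEF 2, or with the Aid+/+ iPS clones only, 1 region passed, the Fn1 region at 43.8 kb. Of all shared regions, 5274 of 22772 were higher and 5101 lower without MEF 2. With the Aid+/+ clones only these numbers were 5458 and 4497 of 22987. The median over all shared regions moved from -0.07 in the main fit to -1.29 per filtered tags.

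**Figure D5:**
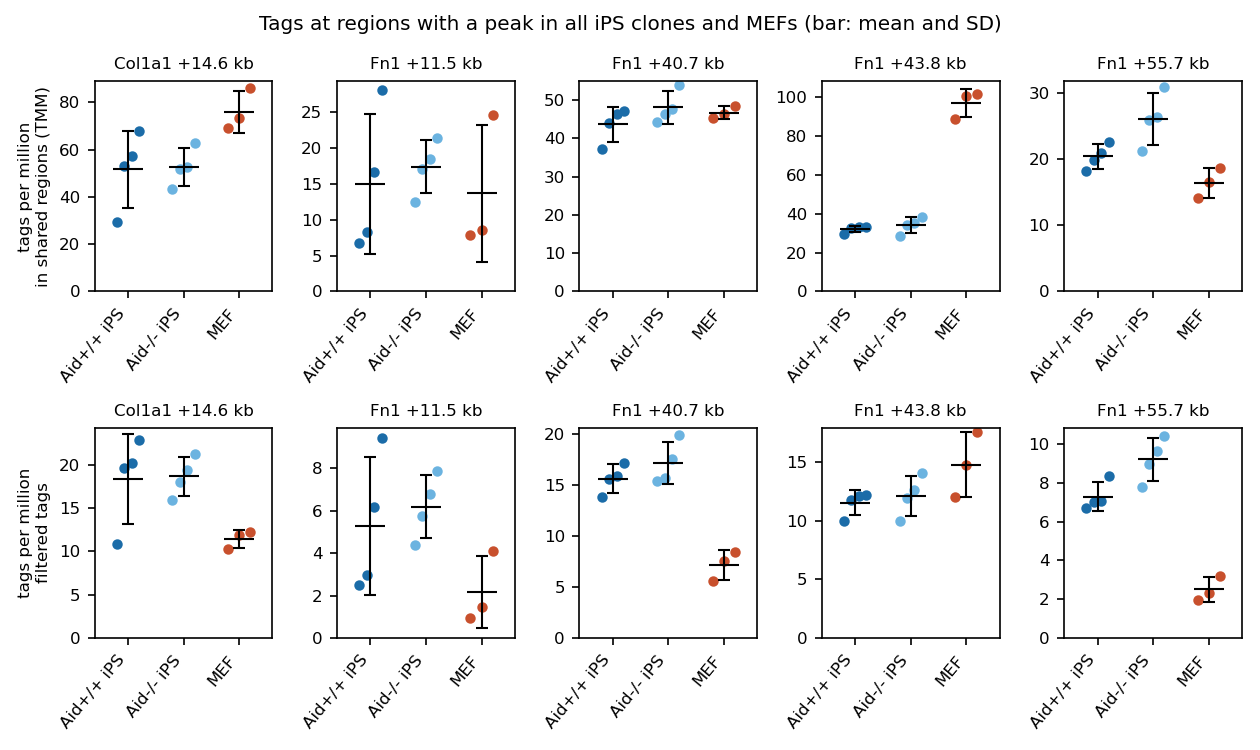
Tags at the 5 regions of Col1a1 and Fn1 with a peak in all iPS clones and MEFs, 1 point per sample with bars for mean and SD, in CPM of the tags in shared regions (top) or of the filtered tags (bottom). Fn1 at 43.8 kb lies above every iPS clone in all 3 MEFs in the top row and overlaps them in the bottom row.

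Against the ES lines, 0 members had a promoter peak in every ES line and no MEF (0.872% of genes) and 0 had covered lengths that did not overlap, where 3.71% of genes lay below and 3.69% above in MEFs. With 3 samples a group the smallest exact p is 0.1. The ES lines spread widely, from 0 to 2775 bp at Prrx1 and from 1661 to 7999 bp at Fn1, and the MEFs fell inside this spread at both genes. Of the 4 member regions with tags in all 6 samples, 0 passed the edgeR test, against 3.87% of regions higher and 1.07% lower in MEFs. The Fn1 region at 43.8 kb had 90, 26 and 241 tags in ES 1 to 3, below MEF 1 and MEF 2 in every line, with a log2 difference of 1.51 (SE 0.440, edgeR adjusted p = 0.0691). The other 3 regions had edgeR adjusted p values from 0.531 to 0.630.

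A wider list of 39 other mesenchymal and matrix genes was read in the same way. Of 9 with a promoter peak in MEFs or iPS clones, Fap, a surface protease of activated fibroblasts, had one in 8 of 8 iPS clones and no MEF, and Eng, a co-receptor for TGF-beta, had one in 3 of 3 MEFs and no iPS clone, which is 1 of 9 in each direction beside 3.76% and 1.53% of all genes with a promoter peak. In the body, Dcn and Acta2 had a peak in 8 of 8 iPS clones and no MEF, which is 2 of 31 genes beside 4.26% of all genes. Covered length was below every iPS clone in all MEFs for 13 of 33 genes (Col5a1, Col6a3, Fbln2, Dcn, Thbs1, Thbs2, Fap, Ddr2, Cdh2, Acta2, Fstl1, Mmp2 and Tgfbi) and above for 0, beside the 19.9% and 2.96% of all genes given above. No values at equal peak numbers are given for this list. At equal peak numbers 4.12% of all genes lay below and 14.9% above. Against ES lines, covered length was above in all MEFs for 1 of 31 genes, Foxc2, beside 3.69% of all genes, and below for 0 beside 3.71%. In DNA from a bulk culture, methylation in fewer cells and less methylation in every cell cannot be told apart at any of these genes.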

How the data were processed

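Methylated DNA was captured from 14 samples with an MBD kit and sequenced as single reads of 75 bases. The submitters' notes name CASAVA 1.8.1, BWA 0.5.9rc1, MACS 1.4.1 and mm9, while the file headers name MACS 1.4.1 in 9 files and 1.4.0rc2 in 5 (MEF 1, Aid-/- iPS clone 3 and the 3 ES lines). The authors called peaks in each sample alone, and the deposited peak lists give tag counts, minus log10 p-values scaled by 10 and fold enrichment (a ratio to local background), and peaks were ranked by these −log10 values. No control library is named in any file header, and at most 2 tags per position were kept.

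The reference was NCBIM37 with GENCODE M1, and no peak ended past its chromosome. Peaks were assigned to genes with an overlap of at least 1 bp. Promoter and body presence was tested with two-sided Fisher's exact tests and covered length with exact permutation tests over 165 groupings (20 against ES lines), with Benjamini-Hochberg adjustment over all genes with a peak. Tags in regions with a peak in every compared sample were fitted with edgeR 4.0.16 (quasi-likelihood, TMM) in R 4.3.3, adjusted over all shared regions. On simulated counts for MEFs against iPS clones (22481 regions), 81 of 100 regions changed 2-fold and 100 of 100 changed 4-fold were recovered, and for MEFs against ES lines (16026 regions) 5 and 83. Unchanged regions called numbered 10 and 5, respectively. The simulation used 1 dispersion for all regions and as many rises as falls, so it does not test the choice of library size. Alternatives were a stricter peak p, equal peak numbers per sample, Aid+/+ iPS clones only, leaving out each sample, other library sizes, a peak-length offset, a mean of at least 20 tags, DESeq2 1.42.0 and limma 3.58.1 on log2 fold enrichment computed from the deposited ratio. Identical peaks made up at most 0.00571% in any of 91 sample pairs. Members and lists were chosen with earlier results of these data known. All 10 members are named, with the mesenchymal genes of the wider list whose groups were apart and the pluripotency genes with a promoter peak or groups apart. No batch term was fitted. MEFs and iPS clones shared only 1 combination of name prefix and MACS release in the file headers, although each release alone held both. The part of name prefix or release in the results was not tested.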

Additional observations from a re-analysis of the deposited data

Results flagged for a closer look

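Of 28 measures tested within a group of 4 iPS clones, 1 had a sample far from the others. At Col1a2, Aid+/+ iPS clone 1 had 0 tags in peaks, while the other 3 Aid+/+ clones had 14, 16 and 16. About 1 in 20 such groups, 1.4 of 28, is expected to pass by chance. The value of 0 means that no peak was listed there, and the other clones were close to the smallest tag count that was listed in any iPS library.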

How the results depend on the processing

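Of 641 alternative values, 572 kept their direction and their side of the threshold or moved by less than the spread between replicates. Counts that changed by a small ratio were also taken as kept, such as 5 DMRs in place of 4 without Aid+/+ clone 1. The 572 include promoter values of members without a promoter peak in any sample, which could not change, so this number does not measure robustness. With an equal number of peaks per sample the members apart between MEFs and iPS clones fell from 1 to 0 for presence and from 3 to 0 for covered length, and DMRs from 4 to 0. Covered length in MEFs minus iPS clones turned to 31.0 bp at Prrx1, and in MEFs minus ES lines to 97.3 bp at Col1a1 and 116 bp at Prrx1. Leaving out 1 sample gave 1 to 3 members for presence (3 without MEF 2, 2 without MEF 3), 3 to 5 for covered length and 4 to 7 DMRs (5 and 7 without MEF 2) against iPS clones. Against ES lines it gave 0 to 4 members for covered length and 0 to 4 DMRs (4 and 4 without ES 2). Shares over all genes or stretches with a sample left out are not given, so these changes cannot be read as particular to the members. Covered length in MEFs minus ES lines then ran from -1351 to 638 bp at Col1a1 and from -2868 to 301 bp at Fn1, lowest without ES 2 and above 0 without ES 3.

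Shared regions of the members past the edgeR threshold numbered 1 to 3 against iPS clones when a sample was left out (1 without MEF 2), 1 with Aid+/+ iPS clones only, 0 to 1 against ES lines (1 without ES 3) and 1 there by DESeq2, always with Fn1 at 43.8 kb as that 1. Over all shared regions against ES lines, 2878 of 16134 were higher in MEFs and 1295 lower without ES 3. By DESeq2 these numbers were 1209 and 432 of 16026. On the log2 scale, MEFs minus iPS clones, Fn1 at 40.7 kb turned to -0.34 with total tags as library size, -1.19 with filtered tags, -0.62 by limma and -0.017 without Aid+/+ clone 2 (range when a sample was left out, -0.017 to 0.22). Col1a1 at 14.6 kb turned to -0.69 with filtered tags and was no longer past the threshold with total tags or by limma. Fn1 at 11.5 kb turned to 0.36 with the length offset and ran from -0.93 without MEF 2 to 0.22 without MEF 3, also above 0 without MEF 1 or Aid+/+ clone 4. Against ES lines, Fn1 at 40.7 kb turned to -0.067 with total tags, -0.39 with filtered tags and -0.55 by limma, and ran from -0.070 without ES 2 to 0.68 without ES 3. Col1a1 there turned to -0.045 with total tags and -0.37 with filtered tags and ran from -0.14 without ES 2 to 0.66 without ES 1, and Fn1 at 55.7 kb ran from -1.11 without ES 2 to 0.019 without ES 1. The cause of these changes was not tested, except that the library sizes move the median of all regions.

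No paired analysis was made, because no label ties an iPS clone or ES line to a MEF culture. Peak lists hold no tags where no peak was called, so lower methylation and too few tags cannot be told apart there.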
